A study of Mus musculus with 8 samples.

Results

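Glycolysis and hypoxia response genes were described in incisor dental epithelia of mice homozygous null for Bmi1 (Bmi1-/-, here Bmi1 null, 4 samples) and of wild-type (WT) mice (4 samples), all on a mixed genetic background. The 35 genes were listed by name, and every noncontrol probe whose accession maps to one of them was taken, which gave 54 of the 41174 noncontrol probes and 35 of the 17178 genes that could be given a symbol. The list holds 25 glycolytic genes (glucose transporters, enzymes, lactate transporters and kinases of pyruvate dehydrogenase), 9 targets of hypoxia-inducible factor (HIF) outside glycolysis, and Hif1a itself. RNA abundance was measured on 1-colour Agilent arrays, 1 array per sample, after whole incisors were treated with accumax and the epithelium was parted by hand from the mesenchyme. The age of the mice and the nature of the null allele are not given in the sources used here, nor whether each sample was a separate animal, so the p-values measure only the spread between these samples.

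Glycolysis converts glucose to pyruvate in the cytosol and yields ATP without oxygen; lactate dehydrogenase then turns pyruvate into lactate, which monocarboxylate transporters carry out of the cell. HIF is a dimer of an oxygen-labile alpha subunit, such as the product of Hif1a, and the stable subunit Arnt. In normal oxygen the prolyl hydroxylases of the Egln genes mark the alpha subunit for destruction through Vhl, so Hif1a RNA is a poor guide to HIF activity. When stable, HIF binds a short motif with the core ACGTG and raises glycolytic genes along with genes of blood vessel growth, pH control and mitophagy, so many glycolytic genes are HIF targets as well. Bmi1 encodes a subunit of Polycomb repressive complex 1, which silences developmental genes.

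The 75th percentile of the processed signal lay between 440 and 795 on Bmi1 null arrays and between 617 and 1900 on WT arrays (exact permutation p = 0.0857, two-sided, where the smallest possible value with 4 against 4 is 0.0286). Probes well above background made up 64.2% to 68.2% on Bmi1 null arrays and 69.6% to 74.4% on WT arrays (exact permutation p = 0.0286). Each of the 2 slides carried 2 samples of each genotype. Bmi1 RNA, read by the brighter of its 2 probes, averaged -1.60 ± 0.88 in Bmi1 null and 1.22 ± 0.05 in WT samples (SD, n = 4 each, limma adjusted p = 0.0305). Here and below a level is the log2 of the signal over the 75th percentile of its array, unless another scale is named. A library that stands somewhat apart is Bmi1 null replicate 1, which gave the highest value of all 8 arrays for 20 of the 35 genes. How often this array was highest over all genes was not counted. Relative to each gene's WT mean, its median was -0.10 over all genes tested and 0.64 over the 35 members. It had 75 outlier spots, against 3 to 24 on the other arrays. Whether its high values are a trait of the array or of the list was not tested. WT replicate 1 carries different numbers in its title and in its file's name, and the lists' medians are given without each of these arrays below.

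None of the 35 genes passed limma's test at 5% FDR over 22347 genes, of which 0.0492% passed (0.0403% higher and 0.00895% lower in Bmi1 null samples). The smallest adjusted p of a member was 0.674, for Slc2a1, in the direction of a higher level in Bmi1 null samples. At an unadjusted p under 0.05, 6 members (17.1%) were higher in Bmi1 null samples and 0 were lower, against 4.21% and 2.16% of all genes tested (6.36% in both directions). These 6 were Slc2a1, Ddit4, Aldoa, Aldoc, Tpi1 and Pgk1. The 4 Bmi1 null arrays lay above all 4 WT arrays for 5 members (14.3%), and below them for 0, against 1.81% and 1.25% of all genes (3.06% in both directions). Of the 35 members 28 (80%) had a positive log2 fold change, against 51.4% of all genes tested. The members were chosen with earlier results of these samples known, so these shares describe the list and do not test it. Every member was represented by a probe well above background on all 8 arrays, so the filter on dim probes removed no gene from the list.

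The 25 glycolytic genes had a median log2 fold change of 0.37 and the 9 HIF targets of 0.30, against 0.01 over all genes tested. A positive value means a higher level in Bmi1 null samples. 21 of 25 glycolytic genes and 7 of 9 HIF targets were positive. The fold changes ran between -0.18 and 0.83 for glycolytic genes and between -0.37 and 0.75 for HIF targets, so the lists overlapped over most of their range. Without Bmi1 null replicate 1 the medians were 0.23 and 0.17, and without WT replicate 1 they were 0.38 and 0.32. With array weights in the fit the HIF target median was 0.20.

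**Figure D1:**
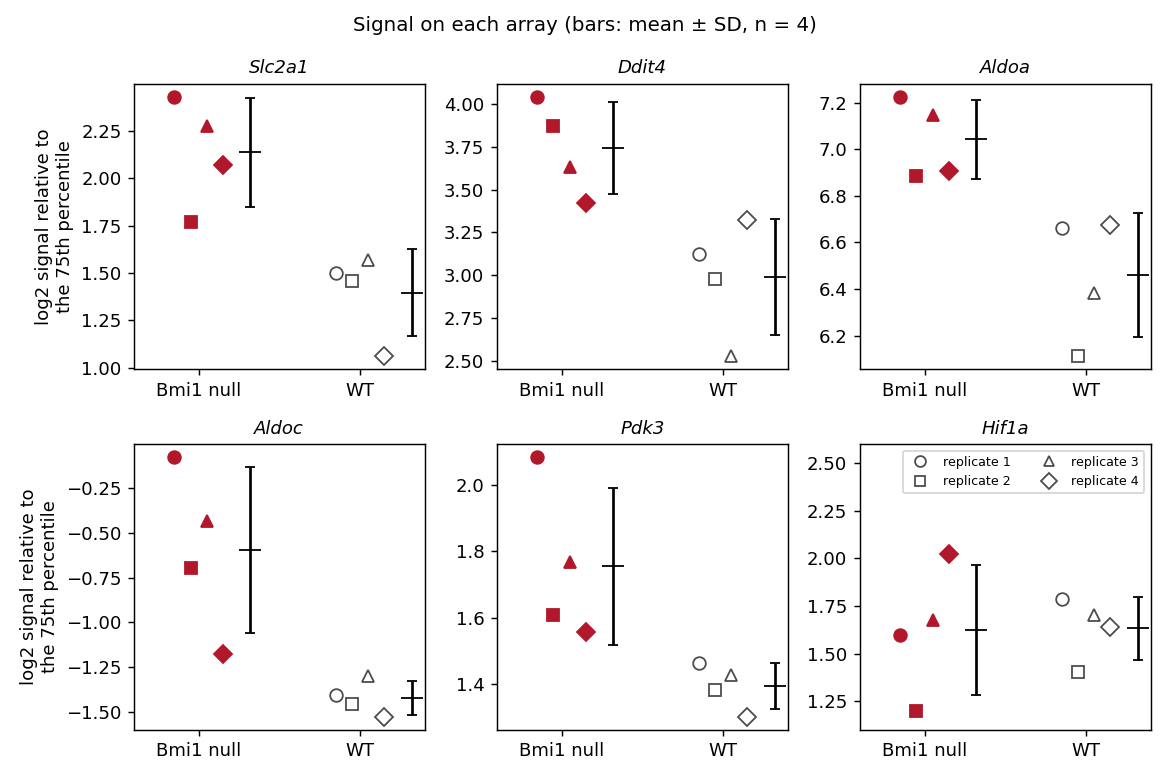
Log2 of signal over the 75th percentile of the array (vertical axis) for the 5 members whose Bmi1 null arrays all lie above the WT arrays, and for Hif1a, whose groups overlap. Each marker is 1 array, marker shapes are replicate numbers, which do not pair samples, and bars are mean ± SD (n = 4 each).

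The promoters of 4 of the 5 genes shown apart, and of Bnip3 as a HIF target whose groups overlap, are printed here to show where the HIF core motif lies in genes whose tested probe had groups apart and in one whose groups overlapped, none of which passed the test. Aldoa, the fifth, is not shown. Each sequence is the 250 bases before the start farthest upstream in the RefSeq promoter table (GRCm38.p6), on the strand of the gene, 5′ to 3′, and capitals mark ACGTG on either strand (CACGT is its reverse complement). They lie at chr4:119108495-119108744 (plus strand) for Slc2a1, chr10:59951771-59952020 (minus strand) for Ddit4, chr11:78322823-78323072 (plus strand) for Aldoc, chrX:93832151-93832400 (minus strand) for Pdk3 and chr7:138909507-138909756 (minus strand) for Bnip3.
Slc2a1: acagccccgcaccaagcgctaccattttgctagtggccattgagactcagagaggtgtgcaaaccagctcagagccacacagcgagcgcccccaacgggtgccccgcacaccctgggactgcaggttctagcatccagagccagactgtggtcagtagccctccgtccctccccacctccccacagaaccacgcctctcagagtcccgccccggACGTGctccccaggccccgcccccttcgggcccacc
Ddit4: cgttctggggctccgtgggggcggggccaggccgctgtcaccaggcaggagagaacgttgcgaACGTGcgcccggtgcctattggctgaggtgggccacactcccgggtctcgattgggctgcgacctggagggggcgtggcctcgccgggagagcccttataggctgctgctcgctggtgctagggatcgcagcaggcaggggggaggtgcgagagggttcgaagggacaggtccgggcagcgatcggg
Aldoc: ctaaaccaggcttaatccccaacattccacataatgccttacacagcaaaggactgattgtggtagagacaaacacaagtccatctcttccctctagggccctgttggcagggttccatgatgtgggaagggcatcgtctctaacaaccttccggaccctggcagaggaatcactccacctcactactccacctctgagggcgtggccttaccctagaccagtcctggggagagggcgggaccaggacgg
Pdk3: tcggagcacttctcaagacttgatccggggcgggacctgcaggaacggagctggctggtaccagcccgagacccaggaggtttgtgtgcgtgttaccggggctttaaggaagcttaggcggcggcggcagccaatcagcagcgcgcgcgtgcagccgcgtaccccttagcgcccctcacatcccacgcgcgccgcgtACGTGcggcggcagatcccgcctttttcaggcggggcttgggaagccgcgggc
Bnip3: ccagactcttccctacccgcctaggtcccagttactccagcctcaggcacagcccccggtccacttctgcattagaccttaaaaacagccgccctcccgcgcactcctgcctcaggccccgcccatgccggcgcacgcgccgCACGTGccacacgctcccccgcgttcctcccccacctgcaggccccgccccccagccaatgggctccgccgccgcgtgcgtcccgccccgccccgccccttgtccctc
The motif starts at position -36 in Slc2a1, -187 in Ddit4 and -53 in Pdk3, counted from -1 at the base before the start. Aldoc has no match in this window. In Bnip3 the matches on the 2 strands overlap, at -108 and -107, in the palindrome CACGTG.

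The table held promoters for 33 of the 35 members, with no entry for Slc2a3 or Ndrg1. ACGTG or its reverse complement stood in the 250 bases before at least 1 listed start of 21 of these 33 genes (63.6%), against 18.5% of all 27025 genes in the table and 20.0% of its 17492 protein-coding genes. Over single promoters the shares were 51.1% of 47 in members and 16.6% of 32851 in all. The 21 members with the motif had a median log2 fold change of 0.32, with 16 positive, and the 12 without it had 0.41, with 11 positive. Members with the motif ran from -0.37 for P4ha1 to 0.75 for Ddit4. The list was named to hold HIF targets, so a higher share of the motif follows from that choice and is no result of these arrays. A match is a match of letters and does not show that HIF binds there.

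Glucose enters cells through facilitative transporters. Slc2a1 (Glut1, the basal transporter of most epithelia) had 2.43, 1.77, 2.28 and 2.07 in Bmi1 null replicates 1 to 4, against 1.50, 1.46, 1.57 and 1.06 in WT replicates 1 to 4. The lowest Bmi1 null array lay above the highest WT array. This was a 1.67-fold higher mean in Bmi1 null samples (log2 0.74 ± 0.19, SE, limma adjusted p = 0.674), which did not pass over all genes. Slc2a3 (Glut3, a high-affinity transporter typical of neurons) averaged -0.44 ± 0.26 in Bmi1 null and -0.28 ± 0.13 in WT samples (SD, n = 4 each), with a log2 fold change of -0.16 and overlapping groups. The 2 transporters thus had fold changes of opposite sign, and the difference between them was not tested.

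The enzymes from hexokinase to triose phosphate isomerase all had a positive log2 fold change, 9 of 9, with a median of 0.44. Without Bmi1 null replicate 1, Hk1 and Pfkm had -0.02 and -0.01, and under quantile normalization Aldoa was negative. Aldoc (aldolase C, the aldolase best known from brain) had -0.08, -0.70, -0.43 and -1.18 on the Bmi1 null arrays, against -1.41, -1.46, -1.30 and -1.53 on the WT arrays. Its WT values were tight (SD 0.09) and its Bmi1 null values were spread (SD 0.46), and the groups did not overlap. The log2 fold change of Aldoc was 0.83 ± 0.25 (SE, limma adjusted p = 0.685), the largest of the 35 members. Aldoa (aldolase A, the main aldolase of most tissues) had 7.23, 6.89, 7.15 and 6.91 on the Bmi1 null arrays, against 6.66, 6.11, 6.38 and 6.67 on the WT arrays. Its groups were also apart (log2 0.58 ± 0.17, SE, limma adjusted p = 0.681), and its other probe, at 0.69, was apart as well. Under quantile normalization, however, the log2 fold change of Aldoa was -0.09, where its other probe had 0.22, so the direction of the brighter probe rests on the scaling.

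Tpi1 (triose phosphate isomerase) had 4.90, 4.57, 4.59 and 3.99 on the Bmi1 null arrays, against 4.23, 3.84, 3.48 and 3.83 on the WT arrays. Bmi1 null replicate 4 lay below WT replicate 1, so the groups overlapped (log2 0.67 ± 0.22, SE, limma adjusted p = 0.761). Gpi1 (glucose-6-phosphate isomerase) had a log2 fold change of 0.41, and of 0.02 under quantile normalization. The hexokinases trap glucose as its phosphate. Hk2 (the inducible form) had 0.27, and Hk1 (the constitutive form) had 0.42 ± 0.41 (SE), most of it from Bmi1 null replicate 1. Hk1 stood at 0.11, -1.41, -1.28 and -2.23 on the Bmi1 null arrays, against -1.71, -1.52, -1.52 and -1.71 on the WT arrays. Bmi1 null replicate 1 was thus the highest and Bmi1 null replicate 4 the lowest of the 8, and in slides 1 and 2 alone the differences were 1.06 and -0.23.

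Phosphofructokinase-1 makes the first committed step of glycolysis, and its 3 genes had log2 fold changes of 0.44 (Pfkl, the liver form), 0.14 (Pfkm, the muscle form) and 0.62 (Pfkp, the platelet form). Without Bmi1 null replicate 1 they had 0.20 for Pfkl, -0.01 for Pfkm and 0.33 for Pfkp. The differences in slides 1 and 2 were 0.76 and 0.12 for Pfkl, and 0.36 and -0.07 for Pfkm. Pfkp stood at 0.01, -1.54, -0.56 and -1.37 on the Bmi1 null arrays, against -1.31, -1.32, -1.46 and -1.88 on the WT arrays. Its replicates 2 and 4 in the Bmi1 null group lay within the WT range. The bifunctional enzymes Pfkfb3 and Pfkfb4, which make the activator fructose 2,6-bisphosphate and are HIF targets, had -0.03 and -0.18. Neither was apart between genotypes, and both belong to the 4 glycolytic genes with a negative sign, beside Slc2a3 and Slc16a1.

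**Figure D2:**
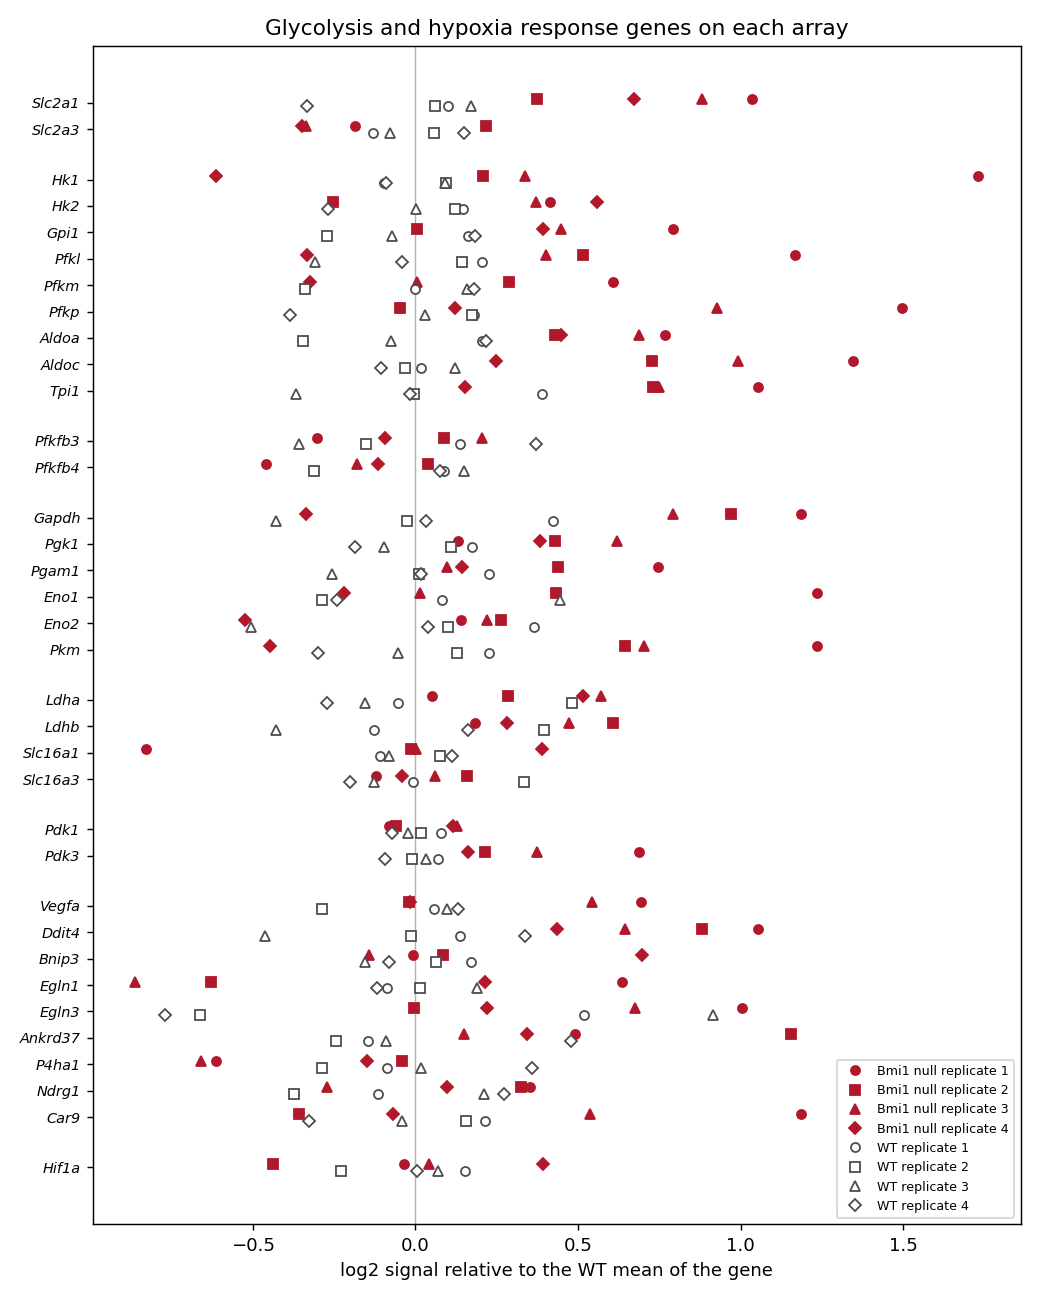
Log2 signal of each of the 35 genes on each of the 8 arrays, relative to the gene's mean over the 4 WT arrays (horizontal axis), with genes in the order of the pathway and HIF targets and Hif1a last. Bmi1 null replicate 1 is the rightmost marker for 20 of the 35 genes, and Bmi1 null replicate 4 is the leftmost for 5.

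The enzymes from Gapdh to pyruvate kinase were also all positive, 6 of 6, with a median log2 fold change of 0.38. Without Bmi1 null replicate 1, Eno2 had -0.01, Eno1 0.08, Pgam1 0.23 and Pkm 0.30. Pgk1 (phosphoglycerate kinase, the first step that yields ATP) had 4.52, 4.82, 5.01 and 4.77 on the Bmi1 null arrays, against 4.56, 4.50, 4.29 and 4.20 on the WT arrays. Its groups overlapped by Bmi1 null replicate 1 alone (log2 0.39 ± 0.16, SE, limma adjusted p = 0.770), while its dimmer probe had 0.42 with the groups apart. Gapdh, often used as a reference gene, had 5.96, 5.75, 5.57 and 4.44 on the Bmi1 null arrays, against 5.20, 4.75, 4.35 and 4.81 on the WT arrays. All but 1 of its Bmi1 null arrays lay above all WT arrays and replicate 4 lay among the WT arrays (log2 0.65 ± 0.32, SE, limma adjusted p = 0.784).

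Pkm (pyruvate kinase of most tissues) had 3.68, 3.09, 3.15 and 2.0 on the Bmi1 null arrays, against 2.67, 2.57, 2.39 and 2.15 on the WT arrays. Bmi1 null replicate 1 was the highest and Bmi1 null replicate 4 the lowest of all 8. Pkm had a difference of 0.98 in slide 1 and of 0.09 in slide 2. Pgam1 (phosphoglycerate mutase) had a log2 fold change of 0.36, Eno1 (the common enolase) of 0.37 and Eno2 (the neuronal enolase) of 0.03. Eno1 had 0.91 in slide 1 and -0.18 in slide 2. Its 1 probe averaged -0.43 over the 8 arrays, where Pgam1 averaged 5.20 and Gapdh 5.10. How well this probe reads Eno1 RNA was not tested. Gapdh, Pgk1, Tpi1, Ldha and other enzymes of this pathway have processed pseudogenes in the mouse, and whether their probes also bind such copies was not tested.

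Among the genes after pyruvate, Ldha (the lactate dehydrogenase subunit of muscle and tumours, a HIF target) had 4.89, 5.12, 5.41 and 5.35 on the Bmi1 null arrays, against 4.78, 5.32, 4.68 and 4.57 on the WT arrays. WT replicate 2 lay within the Bmi1 null range, so the groups overlapped (log2 0.36 ± 0.20, SE, limma adjusted p = 0.789). Ldhb (the heart subunit) had 0.39 ± 0.20 (SE), and -0.23 under quantile normalization, so that its sign also rests on the scaling. The exporters of lactate had -0.11 for Slc16a1 (Mct1) and 0.01 for Slc16a3 (Mct4, a HIF target).

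Pyruvate dehydrogenase kinases shut the entry of pyruvate into the citric acid cycle. Pdk3 had 2.08, 1.61, 1.77 and 1.56 on the Bmi1 null arrays, against 1.47, 1.38, 1.43 and 1.30 on the WT arrays. The groups did not overlap, with a gap of less than the spread within the Bmi1 null group (log2 0.36 ± 0.17, SE, limma adjusted p = 0.784). The second Pdk3 probe had 0.21 and overlapped. Pdk1, a kinase of the same reaction and a well-known HIF target, averaged -0.58 ± 0.11 in Bmi1 null and -0.61 ± 0.06 in WT samples (SD, n = 4 each), a log2 fold change of 0.03.

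Of the HIF targets outside glycolysis, Ddit4 (Redd1, an inhibitor of mTOR complex 1 that responds to hypoxia, glucocorticoids and DNA damage) stood apart between genotypes. It had 4.04, 3.87, 3.63 and 3.42 on the Bmi1 null arrays, against 3.13, 2.98, 2.53 and 3.33 on the WT arrays. Its groups were parted by less than their SDs, which were 0.27 in Bmi1 null and 0.34 in WT samples. Its mean was 1.69-fold higher in Bmi1 null samples (log2 0.75 ± 0.21, SE, limma adjusted p = 0.678). The difference was 0.73 in slide 1 and 0.78 in slide 2, and 0.64 under quantile normalization.

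Ankrd37, an ankyrin repeat gene strongly induced by HIF in cultured cells, had -1.01, -0.35, -1.35 and -1.16 on the Bmi1 null arrays, against -1.65, -1.75, -1.59 and -1.03 on the WT arrays. WT replicates 1 to 3 lay below all Bmi1 null arrays and WT replicate 4 lay among them (log2 0.53 ± 0.27, SE, limma adjusted p = 0.789). For Vegfa, the main growth factor of blood vessels, the log2 fold change was 0.30 ± 0.21 (SE), and all 4 of its probes were positive, between 0.23 and 0.69. Car9, the cell surface carbonic anhydrase that serves as a marker of hypoxic tissue, had -1.90, -3.44, -2.55 and -3.16 on the Bmi1 null arrays, against -2.87, -2.93, -3.13 and -3.42 on the WT arrays. Bmi1 null replicates 1 and 3 were above the WT range and Bmi1 null replicate 2 was below it (log2 0.32 ± 0.34, SE).

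The oxygen sensors Egln1 and Egln3 differed by -0.16 ± 0.32 and 0.47 ± 0.43 (log2 fold change, SE). Bnip3 (a mitochondrial receptor for mitophagy) had 0.16, with Bmi1 null replicate 4 at 2.63 and the other 7 arrays between 1.78 and 2.10. Ndrg1 (a stress-responsive gene of differentiating epithelia) had 0.13, and -0.14 under quantile normalization. P4ha1 (a collagen prolyl hydroxylase subunit) had 1.06, 1.63, 1.01 and 1.52 on the Bmi1 null arrays, against 1.58, 1.38, 1.69 and 2.03 on the WT arrays. It had the most negative fold change of the 35 genes (-0.37 ± 0.21, SE, limma adjusted p = 0.789), with overlapping groups, and its second probe had -0.77.

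Hif1a had 1.60, 1.20, 1.67 and 2.03 on the Bmi1 null arrays, against 1.78, 1.40, 1.70 and 1.64 on the WT arrays. The Bmi1 null arrays lay on both sides of the WT arrays. The log2 fold change was -0.01 with a 95% confidence interval from -0.45 to 0.43 (limma), so Hif1a changes within that interval are not excluded. The interval is no limit of detection, as members with larger fold changes did not pass the test either.

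**Figure D3:**
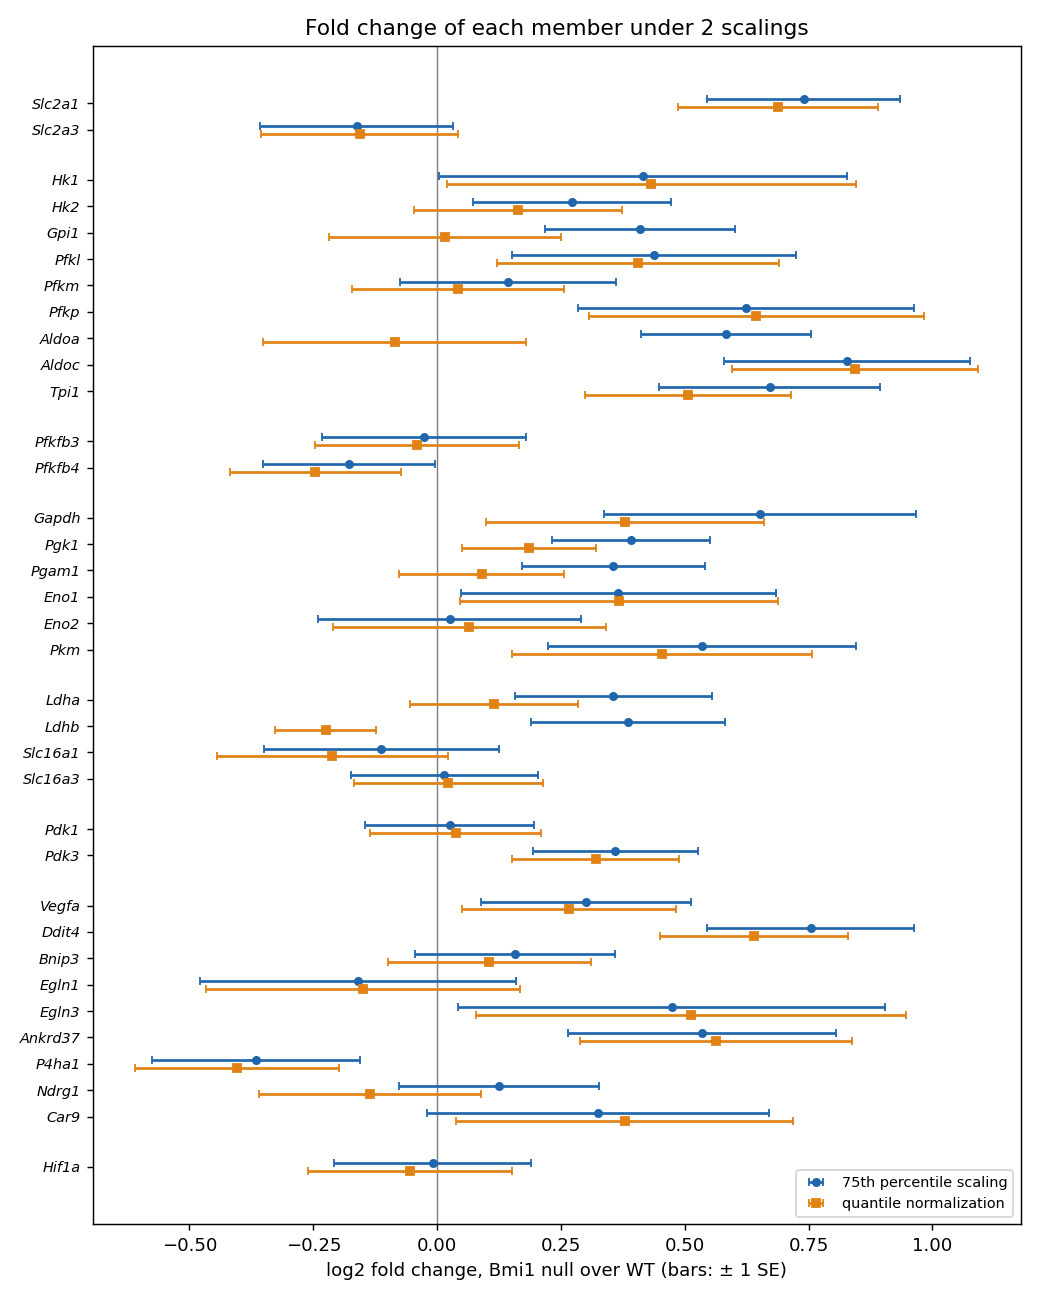
Log2 fold change of Bmi1 null over WT for each of the 35 genes (points) with ± 1 SE (bars), under 75th percentile scaling and under quantile normalization. Aldoa, Ldhb and Ndrg1 lie right of 0 under the first and left of 0 under the second, while Slc2a1, Ddit4 and Aldoc keep values above 0.6.

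Signal level moved with the result. In the brightest 10% of all tested genes 75% had a positive log2 fold change, with a median of 0.15, where the 9 dimmer bins of equal size had medians between -0.08 and 0.04. The brightest bin held 9 of the 25 glycolytic genes (Aldoa, Gapdh, Gpi1, Hk2, Ldha, Ldhb, Pgam1, Pgk1 and Tpi1), and all 9 were positive. Under quantile normalization, which gives all arrays the same distribution, the median of the brightest bin was -0.04. The 9 bright glycolytic genes then had a median of 0.12, in place of 0.39, and the other 16 had 0.19, in place of 0.25. The whole glycolytic list had 0.12 under quantile normalization, with 19 of 25 positive. The HIF targets had 0.27, close to their 0.30, with 6 of 9 positive. Under quantile normalization 4 members were higher and 1, Ldhb, was lower at an unadjusted limma p under 0.05, which is 11.4% of the members on the higher side, against 3.34% higher and 2.69% lower over all genes under that scaling. Of the members, 0 were called under either scaling. With normexp background correction or with no filter on dim probes, 17.1% of the members were higher at that p, close to the 14.6% and 16.9% of all genes under those settings. The 16.9% is over 33508 genes, in place of 22347, and so includes probes that fail the filter, which every member passed. The 2 shares thus cover sets unlike in detection.

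**Figure D4:**
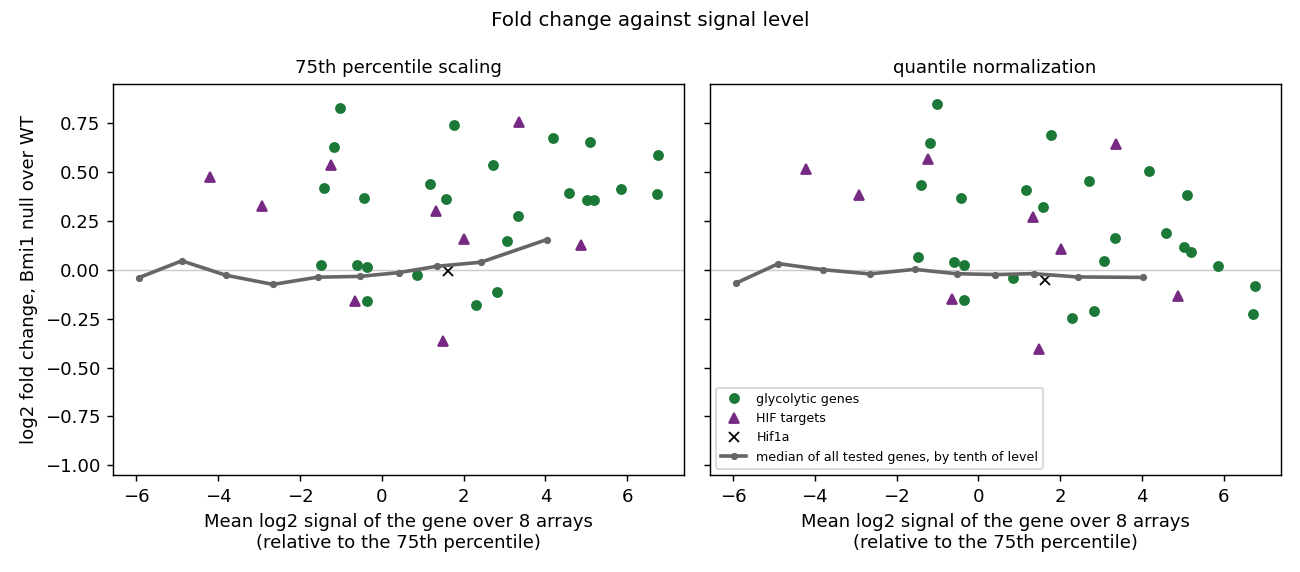
Log2 fold change of Bmi1 null over WT (vertical axis) against the mean log2 signal of the gene over 8 arrays (horizontal axis), under 75th percentile scaling (left) and quantile normalization (right). Points are members, and the line joins the medians of all tested genes in 10 bins of signal level, which end at 0.15 on the left and at -0.04 on the right.

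Arrays of 1 genotype differed from each other for the list as a whole. The median over the 25 glycolytic genes, relative to each gene's WT mean, was 0.69, 0.29, 0.37 and 0.12 on the Bmi1 null arrays, against 0.10, 0.06, -0.07 and -0.04 on the WT arrays. Bmi1 null replicate 4 lay close above the highest WT array. For the 9 HIF targets the medians were 0.64, 0.00, 0.15 and 0.21 on the Bmi1 null arrays, against 0.06, -0.24, 0.02 and 0.13 on the WT arrays, and these overlapped. Within slide 1 and slide 2 the median difference was 0.38 and 0.26 for glycolytic genes, and 0.26 and 0.32 for HIF targets. Of the 35 genes, 21 had a positive difference in both slides, 2 a negative one in both, and 12 opposite signs.

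Probes of 1 gene mostly moved alike. Of 54 member probes 50 entered the test, and 38 of the 50 had a positive difference. Of 11 members with more than 1 entering probe, Eno2 was the one whose probes had opposite signs, at 0.03 and -0.03. The 4 probes that did not enter, 2 of Hk1 and 2 of Pfkfb3, were well above background on at most 2 arrays of either genotype.

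Markers of cell types went in both directions. Epithelial and ameloblast log2 fold changes were mostly positive, and leukocyte, endothelial and skeletal muscle ones mostly negative. Relative to each gene's WT mean, the epithelial median was 0.91, 0.04, 0.87 and 0.52 on Bmi1 null replicates 1 to 4. The glycolytic median there was 0.69, 0.29, 0.37 and 0.12. The summed signal of 9 epithelial markers (keratins, Cdh1, Epcam and others), in multiples of the array's 75th percentile, was 418 to 676 on Bmi1 null arrays and 252 to 352 on WT arrays. All 9 had a positive log2 fold change, with a median of 0.61, or 0.37 under quantile normalization. The sum of 7 ameloblast markers was 413 to 553 on Bmi1 null arrays and 226 to 307 on WT arrays, with 6 of 7 positive and a median of 0.94, or 5 of 7 and 0.23 under quantile normalization. For leukocyte markers it was 3.75 to 7.50 on Bmi1 null arrays and 6.03 to 13.1 on WT arrays, with 1 of 7 tested genes positive. Endothelial markers gave 11.7 to 21.7 on Bmi1 null arrays and 15.3 to 25.4 on WT arrays, with 1 of 8 positive. Mesenchymal markers, all 11 of which passed the filter on dim probes in these epithelial preparations, gave 363 to 759 on Bmi1 null arrays and 351 to 510 on WT arrays, with 7 of 11 positive, or 2 of 11 under quantile normalization. The mesenchymal 363 was on Bmi1 null replicate 1, where the other Bmi1 null arrays had 551 to 759. That array also had the leukocyte sum of 3.75 and the endothelial sum of 11.7. Erythroid markers gave 26.8 to 104 on Bmi1 null arrays and 20.9 to 45.9 on WT arrays, where Epb42 was not above background on any array. Of these erythroid markers, 4 of 5 tested genes were positive. Skeletal muscle markers gave 3.30 to 8.47 on Bmi1 null arrays and 3.09 to 8.58 on WT arrays. Only 1 of 8 was positive, with a median of -0.56, or -0.49 under quantile normalization. The positive gene, Myh4, was the brightest of the 8 and weighs most in the sum. Nerve markers gave 8.13 to 12.3 on Bmi1 null arrays and 6.94 to 12.8 on WT arrays, where Nefm was not above background on any. Of the nerve markers, 2 of 5 tested genes were positive. The part of these cell types in the differences of the glycolytic genes was not tested, and in bulk tissue fewer cells of a type cannot be told apart from less RNA per cell.

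**Figure D5:**
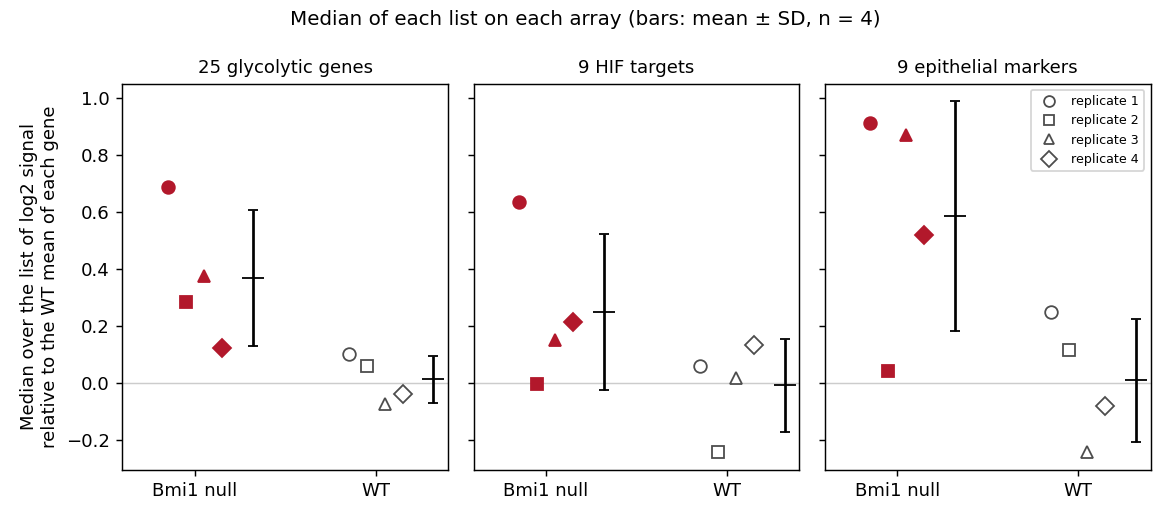
Median over 25 glycolytic genes, 9 HIF targets and 9 epithelial markers of the log2 signal relative to each gene's WT mean (vertical axis), for each array (markers), with mean ± SD (bars, n = 4 each). For glycolytic genes the Bmi1 null arrays sit at 0.12 to 0.69 and the WT arrays at -0.07 to 0.10, a narrow gap, and the other 2 lists overlap between genotypes. All values are under 75th percentile scaling. Under quantile normalization the median log2 fold change of the glycolytic list was 0.12, in place of 0.37.

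Other genes of the same pathways are given by their counts, and no test compared them with the members. Of 36 tested genes of glycolysis and pyruvate use outside the list, 18 were positive and 18 negative, with a median log2 fold change of 0.02. None passed limma's test over all genes. At an unadjusted p under 0.05, 0 were higher and 2 lower, where 4.21% of all genes tested were higher and 2.16% lower. Groups were apart on the higher side for 2 (5.56%), against 1.81% of all genes, and on the lower side for 1, against 1.25%. Of the 36, the 4 with the smallest p were Slc2a10 (a transporter of dehydroascorbate and glucose, -0.63), Bpgm (which makes the red cell regulator 2,3-bisphosphoglycerate, -0.70), Pcx (pyruvate carboxylase, 0.39, groups apart) and Pdk2 (0.79). Of 15 regulators of HIF, 10 were positive, with a median of 0.07 (8 positive under quantile normalization), and 0 passed the limma test over all genes. At an unadjusted p under 0.05, 1 (6.67%) was higher and 0 were lower, against 4.21% and 2.16% of all genes. The regulators were led by Rbx1 (0.46) and Elob (0.23, or -0.12 under quantile normalization), parts of the ubiquitin ligase that acts on HIF, Hif3a (0.51) and Arnt2 (-0.45).

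Of 35 tested HIF targets outside the list, 15 were positive and 20 negative, with a median of -0.01. None passed limma's test over all genes. At an unadjusted p under 0.05, 2 (5.71%) were higher and 4 lower, where 4.21% of all genes tested were higher and 2.16% lower. Edn1 (endothelin 1) averaged -4.03 ± 0.81 in Bmi1 null and -2.83 ± 0.19 in WT samples (SD, n = 4 each, log2 fold change -1.20, limma adjusted p = 0.757). All Bmi1 null arrays lay below all WT arrays for Edn1. Over the 35 targets this held for 2, where it held for 1.25% of all genes tested. Groups apart on the higher side were seen for 0 of the 35, against 1.81% of all genes. Tek (an angiopoietin receptor, also among the endothelial markers) had -1.10, and Fam162a (a mitochondrial protein) had 0.45. The endothelial markers, Tek among them, had a median of -0.28, and their part in these values was not tested.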

How the data were processed

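RNA of 8 incisor epithelia was labelled with Cy3, per the labels' protocols, and the authors' arrays were scanned on a G2505C scanner and read with version 10.5.1.1 of Feature Extraction under GE1-v5_95_Feb07 (grid build mm9), per the file headers. The deposited processed signal is a linear intensity corrected for background within the array and not normalized between arrays. Spot medians and local background medians, also deposited, are intensities without correction. Other deposited columns are 0 or 1 indicators. The deposited value table holds log2 values whose scale and centring are not stated; its columns tracked the log2 median signal of the same array (r of at least 0.996) and had medians of 6.76 to 6.77.

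Symbols came from a RefSeq gene table (GRCm38.p6) through unversioned accessions, for 24844 of 41174 noncontrol probes. Signals were taken to log2 minus the array's 75th percentile. Control and outlier spots were left out, and no spot was saturated. Probes well above background on at least 4 of 8 arrays entered (28606). Each gene with a symbol was its brightest entering probe (13861 genes). Each entering probe without a symbol was counted as a gene of its own, which gave 22347 in all. Genotypes came from the labels and were compared with limma 3.58.1 in R 4.3.3 (lmFit, eBayes with an intensity trend, two-sided, Benjamini-Hochberg over all genes at 5%), without covariates. Signal percentiles and detected shares were set against each other by exact permutation over samples. The fit was tested on simulated data. The number of arrays limits the precision. Members, lists and tests were chosen with earlier results of these data known. Named are Bmi1, the 35 members and, in each of 3 other lists, the 4 genes with the smallest p, except where a listed gene is not reported here. No probe matched Pdp2 (other glycolysis genes), Vhl (HIF regulators), Lox (other HIF targets) or the markers Dsp, Amtn, Cd68, Hbb-b1 and Sox10. Probe positions were not given in the sources used here. The deposited median signal stood in for the mean signal in the normexp alternative.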

Additional observations from a re-analysis of the deposited data

Results flagged for a closer look

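In groups of 4 arrays, 1 array can lie far from its group, and chance alone gives about 1 in 20 groups such an array. Over 74 groups (35 genes and 2 list medians in each genotype) this occurred in 2. Eno2 was -2.01 in Bmi1 null replicate 4, where the nearest Bmi1 null array was at -1.35. Pfkfb4 was 2.07 in WT replicate 2, where the nearest WT array was at 2.46.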

How the results depend on the processing

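In each of 24 alternatives 0 members passed the limma test, 10% FDR and each slide alone included, and between 3 and 11 members (probes, where every probe was tested) were higher at an unadjusted p under 0.05, or 8.57% (slide 2 alone) to 31.4% (array weights), where all genes had 2.65% and 8.68% in those settings. The members' 17.1% as reported, against 4.21% of all genes, was also 17.1% with normexp and with no filter, against 14.6% and 16.9% of all genes. The last share is over 33508 genes, with probes that fail the filter included. The smallest adjusted p of a member was between 0.157 (no filter) and 1.0 (slide 2 alone). The median of the glycolytic genes was 0.37 as reported, 0.12 under quantile normalization, 0.16 under cyclic loess and 0.11 with the authors' value table; the cause was not tested. It was 0.23 to 0.42 when 1 array was left out, lowest without Bmi1 null replicate 1, and the HIF target median was then 0.17 to 0.41, against 0.30 as reported. Over all genes tested, the median shift was 0.17 with normexp correction at an offset of 50 and 0.13 with no filter, against 0.01; relative to that shift the glycolytic median of 0.29 under normexp is smaller. The calls over all genes were 11 as reported, 5 with normexp, 7 with a common floor, 22 with array weights, 0 with the filter on all 8 arrays, 0 in slide 1 alone and 19 in slide 2 alone. No paired analysis was possible because the replicate numbers follow the order of accessions and pair no samples. The labels do not say whether samples are separate animals.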
